A study of Homo sapiens with 18 samples.

Results

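Collagen chain genes encode the alpha chains that are wound together into collagens, the main structural proteins of the extracellular matrix. The members were all protein-coding genes whose symbol has the form COL, digits, A, digits, with COL17A1, a hemidesmosome component, left out by the rule. They numbered 41 of the 35933 genes with values. By class they were 10 fibrillar genes, 8 basement membrane genes (the type IV chains with COL15A1 and COL18A1), 4 type VI genes and 19 others. The rule used no measured value, though it was set with earlier results of these data known. COL11A1 and COL6A5 had no values in the table and are not analysed here.

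The values are normalized counts from RNA sequencing of 18 libraries of the MCF10 breast cancer progression model, with 3 replicates (a, b and c) in each of 6 groups. MCF10A is a spontaneously immortalized breast epithelial line, MCF10AT1 carries in addition an introduced mutated HRas, and MCF10CA1h was passaged from MCF10AT1 through mouse xenografts. For each line the control group was a Control Negative CRISPR line, and the other was a line made by CRISPR/Cas9 against exon 1 of METTL3, the methyltransferase that writes N6-methyladenosine, which is here called the labelled knockdown. The CRISPR lines were made by transient transfection, cell sorting and clonal selection, and the 3 libraries of a group came from 1 such line, so p-values measure the spread between libraries of a line and not between clones. In bulk RNA, fewer cells of a kind and less RNA per cell cannot be told apart.

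As a check of the labels, METTL3 itself was at 632 ± 154 normalized counts (SD, n = 3) in the MCF10A control and 809.9 ± 261 in the MCF10A labelled knockdown, so the RNA was not lower there. A cut in exon 1 need not lower the RNA of a gene, and the protein, which the study followed by Western blot, is not among these data, so the RNA level is a limited check of the labels. By real-time PCR the study reports less METTL3 RNA in its knockdown lines, a lesser effect than on protein. The MCF10A libraries did not show this decrease. In MCF10AT1 METTL3 RNA was at 929.9 ± 111 against 823 ± 75.2 and in MCF10CA1h at 1135 ± 132 against 804 ± 52.3. Exact two-sided permutation p-values were 0.3, 0.3 and 0.1, and 0.1 is the smallest that 3 against 3 allows. In limma METTL3 passed in MCF10CA1h (adjusted p = 0.0234) and not in MCF10A (0.618) or MCF10AT1 (0.707). Summed values per library lay between 21347352 and 31681834. MCF10AT1 control b stood apart from the other libraries, with the highest sum and the fewest genes above 0 (20121, against 22669 to 26410 in the others). Its correlation with MCF10AT1 control c (0.874) was the lowest within any group, so this value does not single out b from c. Results that rest on control b are also given without it.

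Collagens are sorted by what they build. Fibrillar collagens form the cables of stroma, bone and cartilage. Type IV chains form the sheet under every epithelium, and type VI collagen forms beaded filaments between that sheet and the stroma. Breast epithelial cells sit on a basement membrane they help to make, while fibrillar and type VI collagens in breast tissue are largely products of stromal cells.

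Summed over the 41 members, collagen counts in the MCF10AT1 control libraries were 7384, 5005 and 7553, and in the MCF10AT1 labelled knockdown libraries 23302, 26496 and 30609. In these sums the 3 labelled knockdown libraries lay above every library of the other 5 groups, by little over MCF10A labelled knockdown a. As a percentage of all counts of a library the order differed. MCF10AT1 labelled knockdown a, b and c held 0.0767%, 0.0879% and 0.109%. MCF10A labelled knockdown a held 0.103% and MCF10CA1h labelled knockdown c 0.0842%. In MCF10A the sums were 11298, 9364 and 9607 in the control and 23269, 15018 and 15463 in the labelled knockdown. In MCF10CA1h they were 17223, 17588 and 15573 in the control and 19652, 20642 and 20828 in the labelled knockdown. In all 3 lines the sums of control and labelled knockdown did not overlap, and the classes behind the higher sums differed, as the stacked plot by library shows.

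**Figure D1:**
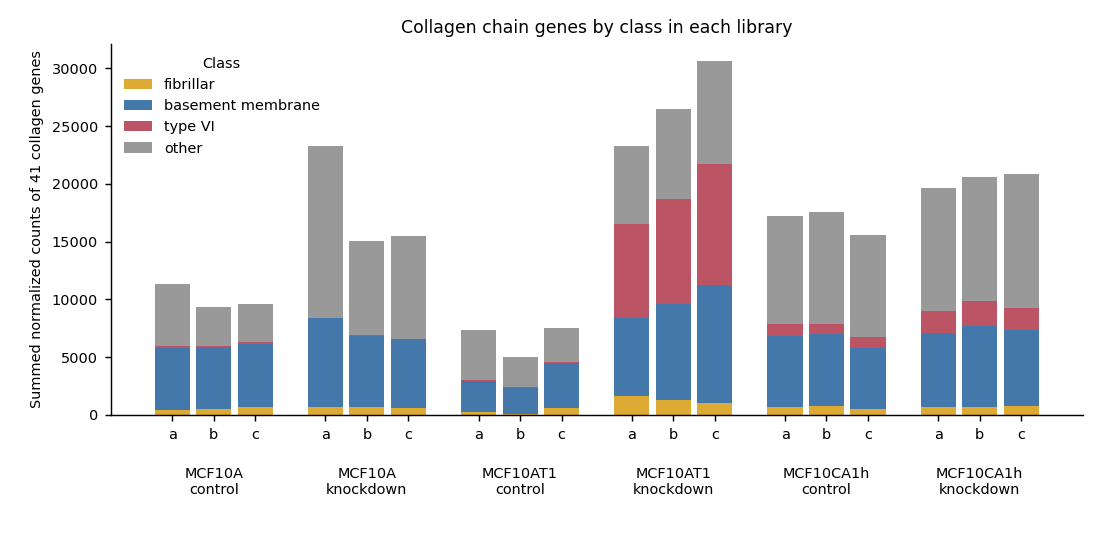
Normalized counts summed over the 41 collagen chain genes (y axis) in each of the 18 libraries (x axis, replicates a, b and c by group), stacked by class. Type VI genes make up 34.2% to 34.6% of the bar in the MCF10AT1 labelled knockdown and at most 2.41% in the MCF10A and MCF10AT1 controls.

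Type VI genes took 34.4% of all collagen counts in the MCF10AT1 labelled knockdown (mean of 3 libraries), against 1.05% in its control. The share was 9.82% against 5.83% in MCF10CA1h and 0.376% against 1.77% in MCF10A. Fibrillar genes held 3.47% to 5.63% of the collagen counts in all 6 group means. Basement membrane genes went from 53.7% in the MCF10A control to 37.5% in the labelled knockdown, and from 44.3% to 31.3% in MCF10AT1, while their summed counts were higher in the labelled knockdown of both lines.

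Many members were hardly detected. In the control groups 22 (MCF10A), 23 (MCF10AT1) and 20 (MCF10CA1h) of the 41 had a mean under 10, and 16 members had a mean under 10 in every group. Those 16 were COL1A2, COL5A1, COL6A6, COL8A2, COL9A1, COL10A1, COL14A1, COL15A1, COL19A1, COL20A1, COL21A1, COL22A1, COL23A1, COL24A1, COL25A1 and COL26A1. Among them COL1A2, the partner chain of COL1A1 in type I collagen, reached at most 14.7 in any library, and COL5A1 at most 6.16.

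Each line was fitted by itself on log2(normalized count + 1), leaving out genes whose mean over its 6 libraries was under 10, and a gene was called at an adjusted p under 0.05 over all genes tested. In MCF10AT1, 22 members were tested and 10 were called, 9 higher and 1 lower in the labelled knockdown. Of all 16050 genes tested in that line 13.0% were called, 7.07% higher and 5.96% lower. The median log2 change of the tested members was 1.11, beside 0.02 over all genes. In MCF10CA1h, 22 were tested and 5 called, 4 higher and 1 lower, beside 12.8% of all genes (7.91% higher, 4.85% lower), with a median of 0.25 beside -0.02. In MCF10A, 17 were tested and 1 was called, higher, beside 2.65% of all genes (1.16% higher, 1.49% lower), with a median of -0.10 beside -0.0035. Of the 41 members 10 were called in 1 line, 3 in 2 lines (COL3A1, COL6A1 and COL16A1), none in all 3, and 28 in no line. Members not tested had means under 10 in the line concerned. A member could pass this filter through its higher group alone. Among called members this held for COL3A1, COL6A2, COL6A3, COL27A1 and COL4A3 in MCF10AT1 and COL2A1 in MCF10CA1h.

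**Figure D2:**
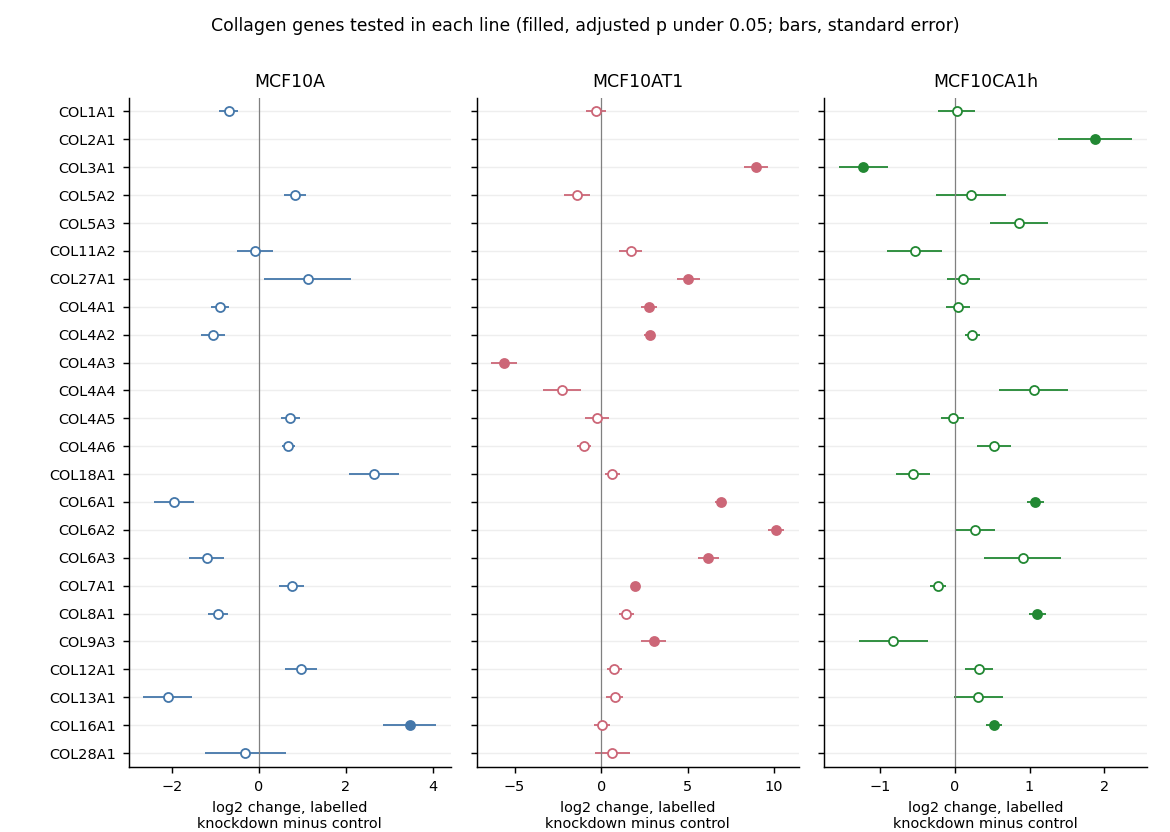
Log2 change of each tested collagen gene (x axis, labelled knockdown minus control, log2 of normalized count plus 1) in the 3 lines, with standard errors as bars and filled points for genes called at an adjusted p under 0.05. The x axes differ in range between panels: in MCF10AT1 the called genes run from -5.61 (COL4A3) to 10.11 (COL6A2, whose size depends on the pseudocount), in MCF10CA1h from -1.22 to 1.87.

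Type VI collagen is assembled from the COL6A1 and COL6A2 chains with a longer chain, most often that of COL6A3. The genes of the first pair lie side by side on chromosome 21 (GRCh38, COL6A1 at 45981770 to 46005050 and COL6A2 at 46098112 to 46132848, both on the plus strand), and COL6A3 lies on chromosome 2 (237324003 to 237414328, minus strand). Since these genes moved together in MCF10AT1, the 250 bases before the RefSeq start of COL6A2 and COL6A3 are shown from RefSeq promoter entries (GRCh38.p14), chr21:46097862-46098111 on the plus strand and chr2:237414165-237414414 on the minus strand, 5′ to 3′, with capitals for matches on either strand to GGGCGG (the GC box), TATAAA (the TATA box), CCAAT or CACCTG (an E-box). COL6A1 has no entry.
COL6A2: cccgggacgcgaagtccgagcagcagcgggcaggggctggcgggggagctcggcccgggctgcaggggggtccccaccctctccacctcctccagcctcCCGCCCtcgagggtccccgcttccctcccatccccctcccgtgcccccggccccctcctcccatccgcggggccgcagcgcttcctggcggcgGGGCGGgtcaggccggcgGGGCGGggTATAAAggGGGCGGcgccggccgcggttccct
COL6A3: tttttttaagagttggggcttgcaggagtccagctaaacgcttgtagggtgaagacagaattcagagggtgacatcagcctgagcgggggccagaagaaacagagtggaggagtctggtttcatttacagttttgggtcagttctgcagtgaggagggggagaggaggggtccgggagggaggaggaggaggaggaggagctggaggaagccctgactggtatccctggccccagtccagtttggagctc
The COL6A2 stretch has a GC content of 79.6% and holds 4 GC boxes and 1 TATA box, none overlapping. Of 35116 RefSeq promoter windows of that length, 42.6% hold a GC box, 10.7% a TATA box, 32.01% a CCAAT box and 17.5% this E-box. The COL6A3 stretch has a GC content of 56.0% and holds none of the 4 motifs. It lies partly inside the gene model given above, which on the minus strand begins at 237414328, before the RefSeq start. The COL6A2 stretch ends directly before its gene model, so the 2 stretches are not alike in position. These matches describe the letters only.

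COL6A1 was at 66.5, 41.1 and 77.0 normalized counts in the MCF10AT1 control libraries and at 6809, 7015 and 8312 in the labelled knockdown. The groups were 119.9-fold apart in mean, a log2 change of 6.92 ± 0.32 (SE, adjusted p = 2.25e-05), the 52nd highest of the 16050 genes tested. COL6A2 was listed at 0 in all 3 control libraries and at 934, 1156 and 1258 in the labelled knockdown (adjusted p = 2.25e-05), so no fold is given. COL6A3 went from 4.48, 6.06 and 16.1 to 314, 932 and 900.4, an 80.6-fold difference in mean (log2 change 6.20 ± 0.62, adjusted p = 0.000477), with labelled knockdown a the lowest of the 3 and still above every control library. All 3 tested type VI genes were thus called higher in MCF10AT1, with no overlap between groups. COL6A2 and COL6A3 passed the filter there only through the labelled knockdown, where they were high. The count of called among tested genes is therefore no added support. How many genes in all lay without overlap was not counted. The fourth, COL6A6, stayed under 1 in all 6 libraries of that line.

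In MCF10CA1h, COL6A1 was at 981, 796 and 915 in the control and at 1830.2, 2018 and 1818 in the labelled knockdown, a 2.10-fold difference (log2 change 1.08 ± 0.11, adjusted p = 0.000275). COL6A2 (50.1, 47.9 and 60.6 against 55.7, 81.9 and 57.1, adjusted p = 0.539) and COL6A3 (14.2, 34.9 and 20.7 against 19.2, 49.0 and 76.3, adjusted p = 0.283) overlapped between groups and were not called. In MCF10A, COL6A1 was at 66.5, 34.5 and 51.8 in the control and at 16.5, 14.6 and 7.07 in the labelled knockdown (log2 change -1.95 ± 0.45, adjusted p = 0.0671), and COL6A3 at 126, 68.0 and 178 against 36.7, 57.1 and 58.1 (adjusted p = 0.164). Neither was called in that fit. COL6A1 was called lower in MCF10A with the replicate letter as a block (adjusted p = 0.0394) and in the fit of all 18 libraries (adjusted p = 0.00149).

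The proportions of the type VI chains differed between lines. Per kilobase of transcript (the canonical transcript's length), COL6A1 stood at 5.45 ± 0.50 times COL6A2 (SD, n = 3) in the MCF10AT1 labelled knockdown, 14.0 ± 1.88 times in the MCF10CA1h control and 24.4 ± 3.68 times in the MCF10CA1h labelled knockdown. Against COL6A3 the ratio spread widely within groups, from 18.9 to 54.3 in the MCF10AT1 labelled knockdown and from 59.7 to 239 in the MCF10CA1h labelled knockdown. COL6A1 was the most abundant collagen transcript per kilobase in the MCF10AT1 labelled knockdown (1756 normalized counts per kilobase), where it held 27.6% of all collagen counts.

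Type IV genes lie in pairs that share a start region and run in opposite directions. In RefSeq (GRCh38.p14) the starts of COL4A1 and COL4A2 on chromosome 13 lie 126 bases apart, those of COL4A4 and COL4A3 on chromosome 2 lie 418 bases apart, and those of COL4A6 and COL4A5 on chromosome X lie 379 bases apart. The chains of the first pair build the network found in all basement membranes, COL4A3 and COL4A4 chains join COL4A5 in specialised membranes such as that of the kidney glomerulus, and COL4A5 and COL4A6 chains build a network found under skin and around smooth muscle. Since COL4A1 and COL4A2 rose together in MCF10AT1, the stretch between their starts is shown, chr13:110307158-110307283, on the plus strand, in which COL4A2 is read and against which COL4A1 is read, with the same motifs in capitals.
COL4A1 and COL4A2: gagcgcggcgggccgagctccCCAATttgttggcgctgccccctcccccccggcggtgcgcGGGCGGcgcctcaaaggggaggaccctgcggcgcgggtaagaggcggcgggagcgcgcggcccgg
The stretch has a GC content of 80.2%, and holds 1 CCAAT box and 1 GC box but neither TATAAA nor CACCTG. It lies inside the GENCODE gene model of COL4A2, which begins at 110305812. Of 35116 windows of 126 bases before RefSeq starts, 21.1% hold a CCAAT box, 34.6% a GC box, 5.87% a TATA box and 8.74% this E-box.

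COL4A2 was at 700.0, 1253 and 695 in the MCF10AT1 control libraries and at 5086, 6466 and 6303 in the labelled knockdown, 6.74-fold apart (log2 change 2.80 ± 0.31, adjusted p = 0.000785). COL4A1 went from 114, 103 and 253 to 741, 832 and 1589, 6.72-fold apart (log2 change 2.78 ± 0.46, adjusted p = 0.00546). The 2 genes changed by nearly the same factor, and per kilobase COL4A2 stood at 7.10 ± 4.81 times COL4A1 in the control and at 6.29 ± 2.02 times in the labelled knockdown. In the annotation used here their gene models overlap on opposite strands (COL4A2 from 110305812, COL4A1 to 110307157), and whether the quantification used strand is not given in the sources used here.

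COL4A3 ran the other way in MCF10AT1, and was the only member called lower there. It was at 63.4, 42.4 and 152 in the control and at 0.510, 0 and 1.44 in the labelled knockdown (log2 change -5.61 ± 0.75, adjusted p = 0.0019). With the labelled knockdown at or near 0 this size depends on the pseudocount, being -6.23 with 0.5 and -3.83 with 5. COL4A4, across the shared start region, was at 68.4, 50.6 and 96.5 against 55.3, 1.10 and 25.7, overlapping and not called (adjusted p = 0.23), though called lower with the replicate letter as a block (adjusted p = 0.0485). COL4A5 (671, 290.2 and 1514 against 413, 309 and 1384, adjusted p = 0.855) and COL4A6 (708, 392 and 901 against 276, 268 and 426, adjusted p = 0.14) were not called either. COL4A6 was called lower with the block (adjusted p = 0.0306) and without control b (adjusted p = 0.0412). Per kilobase, COL4A1 and COL4A2 together stood at 1.01 ± 0.89 times COL4A5 and COL4A6 together in the MCF10AT1 control and at 8.67 ± 4.26 times in the labelled knockdown.

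In MCF10A the same ratio was 0.656 ± 0.132 in the control and 0.214 ± 0.0952 in the labelled knockdown. COL4A1 was at 567, 614 and 798 against 306, 362 and 389 (adjusted p = 0.0596), and COL4A2 at 1446, 1227 and 1577 against 476, 1048 and 623 (adjusted p = 0.0926). COL4A5 (1722, 2101 and 1815 against 4297, 2620.3 and 2648, adjusted p = 0.122) and COL4A6 (1546, 1372 and 1210.2 against 2389.8, 2029 and 2168, adjusted p = 0.0613) lay on the other side. The values of these genes did not overlap between the 2 groups. None was called when the line was fitted by itself with all 6 libraries and without a block. With labelled knockdown b left out, 2 collagen members were called, both lower, beside 0.913% of all genes. With control a left out, 3 were called higher and 1 lower, beside 9.20%. How many of all genes lay without overlap was not counted. In the fit of all 18 libraries COL4A2 was called lower (adjusted p = 0.0313) and the other 3 were not.

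In MCF10CA1h none of the 6 tested basement membrane genes was called by limma, and 4 of them had an unadjusted p under 0.05, as did 28.0% of all genes. COL4A2, the most abundant collagen per kilobase in both groups, was at 3937, 3683 and 3412 against 4031, 4860.0 and 4113 without overlap (adjusted p = 0.171), and COL4A1 at 729.6, 1018 and 708 against 799, 984 and 732 (adjusted p = 0.888). COL4A5 (787, 729 and 582 against 691, 586 and 784), COL4A6 (420.5, 572 and 333 against 669, 455 and 786) and COL4A3 (13.6, 7.52 and 9.71 against 9.88, 1.94 and 1.72, not tested) overlapped between groups. Per kilobase, COL4A1 and COL4A2 stood at 4.07 ± 0.46 and 4.17 ± 1.37 times COL4A5 and COL4A6 in control and labelled knockdown. The protein of COL18A1 is cut to release endostatin. COL18A1 was not called when each line was fitted by itself with all 6 libraries, without a block, with a pseudocount of 1 and the filter. It was called higher in MCF10A in the fit of all 18 libraries (adjusted p = 0.00453). In fits of MCF10A by itself with all 6 libraries it was also called higher with a pseudocount of 5 (0.0447) and with no filter on low values (0.0355). Its means were 23.9 ± 20.95 and 129.7 ± 46.3 in MCF10A control and labelled knockdown (adjusted p = 0.0522), 253 ± 111 and 379 ± 121 in MCF10AT1, and 191 ± 35.7 and 130.4 ± 30.4 in MCF10CA1h.

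**Figure D3:**
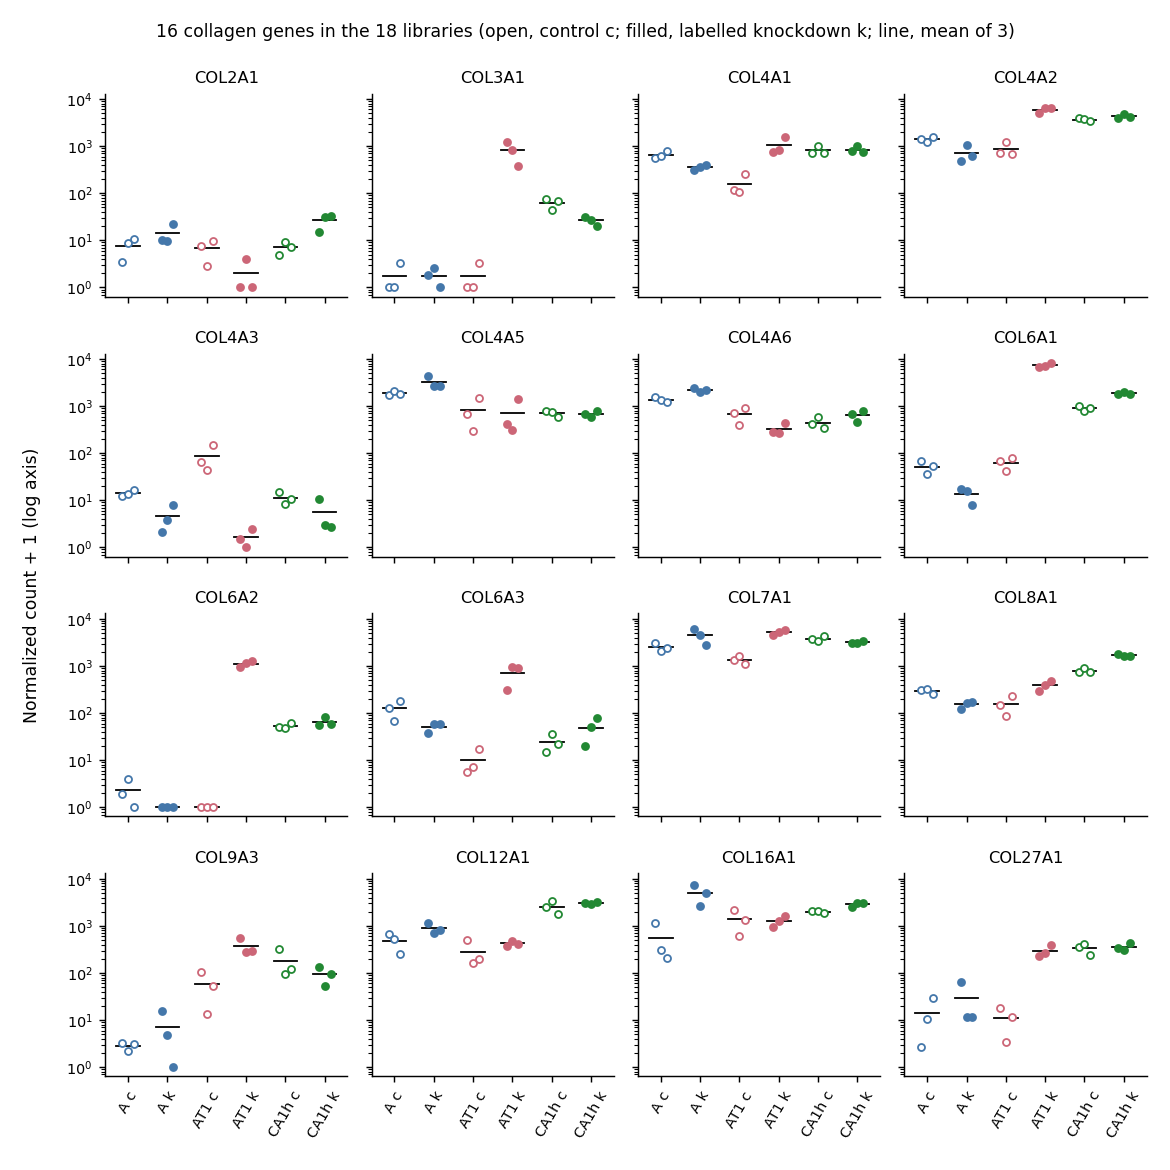
Normalized count plus 1 (log axis) of 16 collagen genes in every library, by line (A, AT1, CA1h) and arm (open, control; filled, labelled knockdown), with the mean of 3 as a line. COL3A1, COL6A1 and COL6A2 sit at or under 77.0 in every MCF10AT1 control library and between 385 and 8312 in every MCF10AT1 labelled knockdown library.

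Among fibrillar genes the called members were not those of type I collagen. COL3A1 (chromosome 2, 188974373 to 189012746), which forms the fibrils of extensible tissue such as skin and vessel wall, was at 0, 0 and 2.25 in the MCF10AT1 control and at 1208, 840.0 and 385 in the labelled knockdown (adjusted p = 0.000144). Its fitted log2 change of 8.95 ± 0.69 was the 16th highest of that line, but depends on the pseudocount, being 9.70 with 0.5 and 7.02 with 5. In MCF10CA1h COL3A1 ran the other way, at 73.6, 42.0 and 68.3 in the control and 30.5, 26.1 and 19.6 in the labelled knockdown (log2 change -1.22 ± 0.32, adjusted p = 0.0343). This call was lost without control a (adjusted p = 0.142) or c (0.113), or without labelled knockdown b (0.0819) or c (0.0965). In MCF10A it did not exceed 2.31 in any of the 6 libraries.

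COL27A1 (chromosome 9, 114155537 to 114312511), a cartilage-associated fibrillar collagen, was at 16.7, 2.39 and 10.7 in the MCF10AT1 control and at 233, 270.3 and 393 in the labelled knockdown, 30.1-fold apart (log2 change 5.04 ± 0.66, adjusted p = 0.00177). In MCF10CA1h it was at 350.3, 415 and 235 against 333, 305 and 428 (adjusted p = 0.775), and in MCF10A at 1.69, 9.50 and 29.0 against 64.4, 10.6 and 10.4 (adjusted p = 0.609). COL2A1, the main fibril chain of cartilage, was called only in MCF10CA1h, at 3.79, 8.36 and 6.18 against 14.3, 30.7 and 31.7 (log2 change 1.87 ± 0.50, adjusted p = 0.0339). The call was lost without control a (adjusted p = 0.111) or c (0.0711), or without labelled knockdown b (0.123) or c (0.116). It lay between 0 and 21.7 in the libraries of the other lines and was not tested there. COL1A1, the main chain of bone and stroma, was at 94.3, 46.2 and 211 against 60.6, 77.0 and 108 in MCF10AT1 (adjusted p = 0.789), and was not called in MCF10A (adjusted p = 0.145) or MCF10CA1h (adjusted p = 0.959).

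The remaining called members belong to smaller families. COL7A1 (chromosome 3, 48564073 to 48595329) builds the anchoring fibrils that tie an epithelium to the stroma. It was at 1319, 1596 and 1078 in the MCF10AT1 control and at 4459.9, 5221 and 5832 in the labelled knockdown, 3.88-fold apart (log2 change 1.97 ± 0.27, adjusted p = 0.00207). In MCF10A it was at 3082, 2101 and 2433 against 6173, 4448 and 2777 (adjusted p = 0.209) and in MCF10CA1h at 3660.3, 3314 and 4237 against 3076, 3125 and 3396 (adjusted p = 0.218), with overlap in both. COL7A1 was among the 4 most abundant members per kilobase in all 6 groups.

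COL9A3 (chromosome 20, 62816244 to 62841159), a fibril-associated chain known from cartilage, was at 106, 12.8 and 53.2 in the MCF10AT1 control and at 549, 276 and 291 in the labelled knockdown (log2 change 3.04 ± 0.72, adjusted p = 0.028). This call was lost without labelled knockdown a (log2 change 2.72, adjusted p = 0.106), b (3.22, 0.079) or c (3.18, 0.0553). In MCF10CA1h it was at 319, 92.7 and 121 against 135, 51.8 and 91.9 (adjusted p = 0.275), and in MCF10A between 0 and 14.7.

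COL8A1 (chromosome 3, 99638475 to 99799226), a short-chain network collagen of vessel wall and cornea, was called higher in MCF10CA1h, at 729.9, 895 and 747 against 1821, 1639.8 and 1620.1, 2.14-fold apart (log2 change 1.10 ± 0.12, adjusted p = 0.000288). In MCF10AT1 it was at 150.0, 83.7 and 227 against 297, 399 and 487 (adjusted p = 0.0663), and called with the block (adjusted p = 0.0136). In MCF10A it was at 302, 317 and 255 against 121, 164 and 174 (adjusted p = 0.0772). In each line the 2 groups did not overlap, with the labelled knockdown lower in MCF10A and higher in the others. The share of all genes without overlap was not counted.

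COL16A1 (chromosome 1, 31652263 to 31704319), a fibril-associated collagen, was the only member called in MCF10A. It was at 1139, 313 and 206 in the control and at 7375, 2692 and 5069 in the labelled knockdown, 9.13-fold apart (log2 change 3.47 ± 0.61, adjusted p = 0.029), the 30th highest change of 15416 genes. Per kilobase it was the most abundant member of that group (931 normalized counts per kilobase, 27.5% of collagen counts). The call was lost without control b (log2 change 3.26, adjusted p = 0.103) or c (2.96, 0.0554), or without labelled knockdown a (3.14, 0.115), b (3.86, 0.0571) or c (3.41, 0.116), though the direction stayed. In MCF10CA1h COL16A1 was called higher as well, at 2059.8, 2058 and 1844 against 2506, 3011 and 3098 (log2 change 0.53 ± 0.11, adjusted p = 0.0114). In MCF10AT1 it was at 2204, 603 and 1328 against 953, 1288 and 1647, fully overlapping (adjusted p = 0.949).

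COL12A1, a stretch-associated collagen of dense stroma, was called in no line. It was at 658, 522 and 248 against 1139, 697 and 803 in MCF10A, at 495, 159 and 193 against 381, 479 and 408 in MCF10AT1, and at 2544, 3327 and 1766 against 3098, 2881 and 3267 in MCF10CA1h. Its lowest MCF10CA1h library (1766) lay above its highest library in the other lines (1139).

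Replicate letters were taken to pair the libraries of MCF10A and MCF10AT1, which the labels do not state. With the letter as a block, 7 of the 17 tested members were called in MCF10A, beside 7.60% of all genes in that fit, where 1 was called without it. COL16A1 (adjusted p = 0.00262), COL18A1 (0.00749) and COL4A6 (0.0253) were called higher in the labelled knockdown, and COL4A1 (0.0211), COL4A2 (0.0468), COL6A1 (0.0394) and COL13A1 (0.0392), a transmembrane collagen, were called lower. Without the block 14 of the 17 had an unadjusted p under 0.05, as did 18.4% of all genes. In MCF10AT1 the block gave 13 called members in place of 10, all 10 among them, and 24.5% of all genes in place of 13.0%. In the fit of all 18 libraries 5 members were called in MCF10A (COL16A1, COL18A1, COL4A2, COL6A1 and COL13A1), beside 3.84% of all genes. When all 18 libraries were fitted together, none of the 23 tested members was called by limma in MCF10CA1h, beside 1.56% of all genes (COL6A1 adjusted p = 0.102, COL8A1 0.0771, COL3A1 0.543, COL16A1 0.896), and 2 of 23 had an unadjusted p under 0.05.

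Without MCF10AT1 control b, all 10 members called in that line were called again in the same direction, with COL4A6 as the 11th. The largest moves were those of COL9A3, whose log2 change went from 3.04 to 2.22, and COL27A1, from 5.04 to 4.35. With MCF10AT1 control c left out instead, 11 were called, the 10 among them, beside 11.0% of all genes. Some cell type markers differed between the MCF10AT1 groups, and others did not. Of 8 mesenchymal markers the summed level was 5126 to 6181 in the MCF10AT1 control libraries and 61649 to 74509 in the labelled knockdown, and VIM alone, at 3922 and 65860 in mean, made up most of it. Of the others THY1 was at 1.53 and 2040.0 in mean, DCN at 391 and 684 and FAP at 61.9 and 115, while PDGFRB was at 21.8 and 19.0 and ACTA2 at 1117 and 808. THY1 did not overlap between groups, while DCN, FAP, PDGFRB and ACTA2 did. The 9 epithelial markers summed to 100511 to 148677 and to 25973.5 to 55121, and 8 of 9 kept a mean of at least 10. In mean CDH1 was at 3906 and 40.9, EPCAM at 3785 and 107 and ESRP1 at 2302 and 9.46. Among the keratins KRT5 was at 44293 and 3045, KRT17 at 22454 and 998 and KRT14 at 73.1 and 14.8. KRT8 (20061 and 14957) and KRT18 (33635 and 23183) were less changed and made up most of the remaining sum. TP63 was higher in mean, at 357 and 559, with libraries from 111 to 745 and from 411 to 749. KRT8, KRT18 and TP63 each overlapped between groups. Within the mesenchymal list 5 of 8 had a mean of at least 10 in the control and 6 of 8 in the labelled knockdown, where LUM was at 0.153 and PDGFRA at 9.33 in mean. The leukocyte marker PTPRC was listed at 0 in all 6 libraries, and of the endothelial markers CDH5 and VWF stayed under 4 in mean while PECAM1 was at 517 and 502. The part of these markers in the collagen result was not tested.

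In the other lines the marker sums moved less. The mesenchymal sum, again mostly VIM, was 9980 to 16590 in the MCF10A control and 6377 to 12019 in the labelled knockdown, and 24891 to 30496.5 and 30927 to 38439 in MCF10CA1h. In MCF10A VIM was at 12505 and 6430.0 in mean and FAP at 466 and 104, while DCN was at 1226 and 3088 and PDGFRB at 3.69 and 11.6. The epithelial sum was 170258 to 205030 and 255565 to 302574 in MCF10A, and 314952 to 342962 and 415923 to 445126 in MCF10CA1h. It was mostly KRT5, at 101080 and 188573 in mean in MCF10A and 214476 and 275662 in MCF10CA1h. In MCF10A KRT17 and TP63 were also higher in mean. Lower there in mean were CDH1 (7000 and 6011), EPCAM (628 and 396), ESRP1 (3972 and 3779), KRT14 (2433 and 811), KRT8 (5261 and 4825) and KRT18 (12992 and 10082). Except for KRT5, KRT14 and KRT18, the epithelial markers overlapped between the MCF10A groups. All 9 epithelial markers had means of at least 10 in these 4 groups. Their part in the collagen results was not tested.

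Collagen chains need enzymes and chaperones to fold, crosslink and be cut, and receptors to bind to. A list of 39 such partner genes was set with earlier results of these data known. Of them 33 were tested in MCF10AT1, with 12 called higher, 1 lower and 20 not called, beside 13.0% of all genes called. The 33 had a median log2 change of 1.13 beside 0.02 over all genes. The 6 with the largest changes included P3H3 (2.98 ± 2.59 against 695 ± 111 normalized counts, adjusted p = 0.000309) and P3H1 (723 ± 372 against 4555 ± 787, adjusted p = 0.0024), both of the prolyl 3-hydroxylase family, and FKBP10, a procollagen chaperone (690.1 ± 38.8 against 10128 ± 983, adjusted p = 4.8e-05). MRC2, a receptor that takes up collagen (786 ± 98.6 against 8445 ± 2995, adjusted p = 0.000369), LOXL2, a crosslinking enzyme (418 ± 252 against 2800.4 ± 708, adjusted p = 0.00319), and the collagen-binding integrin chain ITGA11 (5.02 ± 2.01 against 93.3 ± 96.6, adjusted p = 0.0279) were the others. P3H3 and ITGA11 passed the filter there only through the labelled knockdown. PCOLCE, an enhancer of procollagen cleavage named after its values were seen as the only one lower, went from 144 ± 38.9 to 41.1 ± 6.16 (adjusted p = 0.0259).

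In MCF10CA1h, 30 partner genes were tested, and 6 were called higher and 1 lower, beside 12.8% of all genes, with a median log2 change of 0.23 beside -0.02. LOXL2 changed most (341 ± 54.1 against 1133 ± 93.0, adjusted p = 7e-05), followed by PLOD2 (541 ± 74.5 against 996 ± 124, adjusted p = 0.00346), P4HB (18443 ± 1067 against 29052 ± 3055, adjusted p = 0.00256) and P4HA2 (1891 ± 121 against 2782 ± 245, adjusted p = 0.00632), which hydroxylate collagen lysines and prolines. MRC2 was the 1 called lower (1556 ± 222 against 1094 ± 95.0, adjusted p = 0.0294). In MCF10A, 30 were tested and 2 called, beside 2.65% of all genes, MRC2 higher (159 ± 80.5 against 1436 ± 760, adjusted p = 0.0139) and FKBP10 lower (711 ± 397 against 109 ± 35.2, adjusted p = 0.0173). The chaperone SERPINH1, dedicated to collagen and also named after its values were seen, was called only in MCF10AT1 (2219 ± 500.03 against 7375 ± 1540.1, adjusted p = 0.0063).

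**Figure D4:**
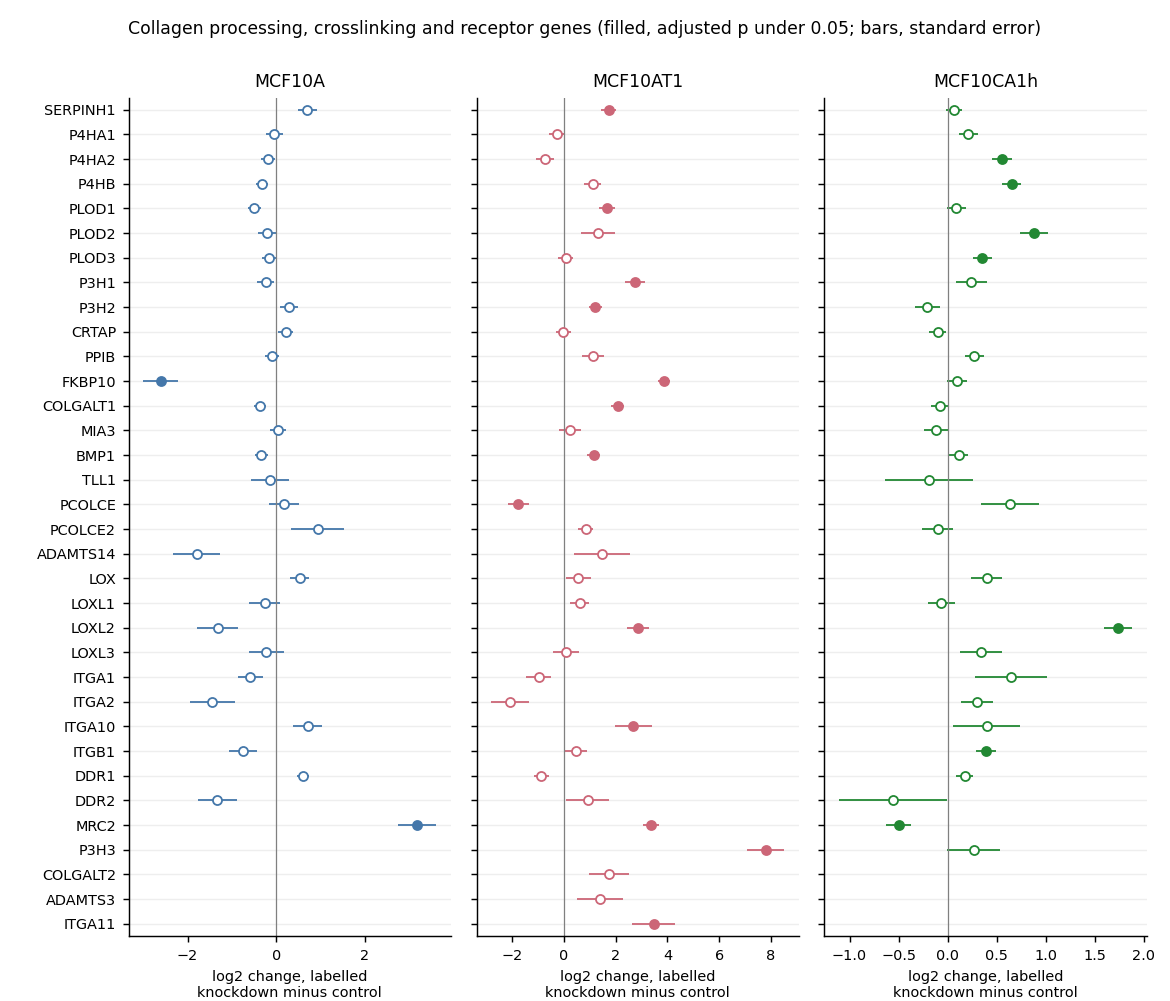
Log2 change (x axis, labelled knockdown minus control, log2 of normalized count plus 1) of the collagen processing, crosslinking and receptor genes tested in at least 1 line, with standard errors as bars and filled points for genes called at an adjusted p under 0.05. The panel of MCF10AT1 holds 13 filled points, that of MCF10CA1h 7 and that of MCF10A 2, and the x axes differ in range between panels.

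The effects in the 3 lines were compared by interaction contrasts in a fit of all 18 libraries, in which 23 members were tested. Between MCF10AT1 and MCF10A the effect differed for 14 members, beside 21.6% of all genes, between MCF10CA1h and MCF10AT1 for 12, beside 18.2%, and between MCF10CA1h and MCF10A for 4, beside 5.34%. COL6A1 differed in all 3 contrasts. COL4A1, COL4A2, COL3A1, COL6A2, COL6A3, COL7A1 and COL27A1 had a higher effect in MCF10AT1 than in either other line, and COL4A3 and COL4A6 a lower effect. The contrasts of a line with each of the others share that line's libraries.

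Levels between lines were compared by fitting the 9 control libraries, where 23 members were tested. Between the MCF10AT1 and MCF10A controls 10 were called, 4 higher and 6 lower in MCF10AT1, beside 28.1% of all genes (13.3% higher, 14.7% lower). Between MCF10CA1h and MCF10A 15 were called, 11 higher and 4 lower in MCF10CA1h, beside 37.8% (19.0% higher, 18.8% lower), and between MCF10CA1h and MCF10AT1 12 were called, 10 higher and 2 lower, beside 21.8% (11.0% higher, 10.8% lower). The median log2 change of the tested members was -0.73, 0.57 and 1.39 in that order, beside -0.01, -0.06 and 0.05 over all genes.

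The MCF10AT1 control had less COL4A1 than the MCF10A control (157 ± 83.5 against 660.0 ± 122, log2 change -2.17 ± 0.34, adjusted p = 0.00355) and less COL6A3 (8.88 ± 6.30 against 124 ± 55.3, adjusted p = 0.00289). It had more COL18A1 (253 ± 111 against 23.9 ± 20.95, adjusted p = 0.00339), COL4A3 (85.8 ± 57.9 against 13.1 ± 2.38, adjusted p = 0.0103), COL4A4 (71.8 ± 23.1 against 11.0 ± 4.81, adjusted p = 0.00613) and COL9A3 (57.2 ± 46.5 against 1.83 ± 0.536, adjusted p = 0.00677). COL4A5, COL4A6, COL7A1 and COL8A1 were also lower. Without MCF10AT1 control b, 9 were called, COL4A5, COL4A6 and COL8A1 not among them, and COL4A2 lower (adjusted p = 0.00611) and COL16A1 higher (adjusted p = 0.0467) in their place.

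The MCF10CA1h control stood above both other controls in COL6A1 (897 ± 94.1, against 50.9 ± 16.04 in MCF10A, adjusted p = 6.81e-05, and 61.5 ± 18.4 in MCF10AT1, adjusted p = 0.000118) and in COL12A1 (2545 ± 780.4, against 476 ± 209, adjusted p = 0.00423, and 282 ± 185, adjusted p = 0.00176). COL3A1, COL27A1, COL6A2, COL8A1, COL4A2 and COL5A3 were likewise called higher in it against each of the other controls. Lower than in the MCF10A control were COL4A5 (699 ± 105 against 1879.6 ± 198, adjusted p = 0.0403), COL4A6, COL5A2 and COL6A3, and lower than in the MCF10AT1 control were COL4A3 and COL4A4. Without MCF10AT1 control b, 18 were called against MCF10A, the 15 among them, and 13 against MCF10AT1, the 12 among them.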

How the data were processed

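RNA from 18 libraries was sequenced, 3 for each of 6 groups, with groups and replicate letters taken from the labels. The deposited values are a normalized signal, gene counts that the authors made with kallisto 0.46.1 on hg38, tximport and DESeq2 1.26.0 (R 4.1.1, per the submitters' notes). Annotation release, filters and strand setting are not given in the sources used here. The sources name both polyA RNA and ribosomal RNA depletion, so transcripts without a tail may or may not be covered. Whole reads could not be recovered, so the depth behind a value is unknown, and no counting interval is given. Rows without values numbered 24646 and were left out, and unmapped columns numbered 0.

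Members were tested with limma 3.58.1 (R 4.3.3, trended eBayes after lmFit) on log2(value + 1), leaving out genes whose mean in the fitted libraries was under 10, with Benjamini-Hochberg adjustment over all genes tested and a threshold of 0.05. Fits used the 6 libraries of a line, the 9 controls, or all 18 libraries for differences between effects. limma was tested on simulated data first. Members called in a line or with a group mean of at least 500 are given library by library, and up to 6 partner genes with the largest change per line are named. Members and gene lists were chosen with earlier results of these data known. Same-letter libraries deviated together in MCF10A (r over 15897 genes of 0.221, 0.200 and 0.116 for a, b and c) and in MCF10AT1 (0.110, 0.289 and 0.477). Different-letter correlations ran from -0.170 to 0.009 in MCF10A and from -0.413 to 0.251 in MCF10AT1. There control b with labelled knockdown a (0.251) lay above a with a. The letters were taken to pair these libraries, though the labels do not say what they stand for. Alternatives were other pseudocounts (0.5 and 5), no filter or a mean of at least 50, no trend, equal sums per library, a replicate block, a joint fit and leaving out each library. Coordinates are those of GENCODE on GRCh38, and sequences are from RefSeq (GRCh38.p14), in which 30 of 41 members had a promoter entry. Tables and figures were made with Python 3.11.15, pandas 2.3.3, numpy 2.4.6, scipy 1.17.1 and matplotlib 3.10.9.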

Additional observations from a re-analysis of the deposited data

Results flagged for a closer look

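Members are listed here because the interaction contrast found their log2 change between labelled knockdown and control to differ between lines (limma, adjusted p under 0.05 over 15897 genes). The change in MCF10AT1 minus that in MCF10A was 8.87 for COL6A1, 7.40 for COL6A3, 8.79 for COL3A1, 3.92 for COL27A1, 3.86 for COL4A2, 3.67 for COL4A1, 2.89 for COL13A1, 2.38 for COL8A1 and 1.21 for COL7A1. It was -3.80 for COL4A3, -3.40 for COL16A1, -2.003 for COL18A1 and -1.67 for COL4A6. COL6A2 stood at 11.08. For genes at or near 0 in a group the size depends on the pseudocount. With 0.5 and 5 it was 12.53 and 8.10 for COL6A2, 9.39 and 7.01 for COL3A1, and -4.25 and -2.71 for COL4A3.

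The change in MCF10CA1h minus that in MCF10A was 3.03 for COL6A1, 2.04 for COL8A1, -2.94 for COL16A1 and -3.21 for COL18A1. In MCF10CA1h minus MCF10AT1 it was -10.17 for COL3A1, -5.85 for COL6A1, -5.30 for COL6A3, -4.93 for COL27A1, -3.86 for COL9A3, -2.73 for COL4A1, -2.57 for COL4A2, -2.24 for COL11A2 and -2.18 for COL7A1. It was 4.29 for COL4A3 and 1.52 for COL4A6, and -9.84 for COL6A2. With pseudocounts of 0.5 and 5 these were -10.84 and -7.54 for COL6A2, -10.93 and -8.13 for COL3A1, and 4.78 and 3.06 for COL4A3, and COL9A3 was not called with 0.5 (adjusted p = 0.058). Without MCF10AT1 control b, 16, 6 and 12 members differed in these contrasts in that order, where 14, 4 and 12 did with it.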

How the results depend on the processing

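For the 1, 10 and 5 members called in MCF10A, MCF10AT1 and MCF10CA1h, no alternative reversed the direction of the change within that line. The filters, the trend, the block and the joint fit leave the log2 change as it was. Only other pseudocounts, equal sums and leaving out a library could have reversed it. Of the 10 members called in MCF10AT1, 9 kept the call in every alternative in which they were tested, and COL9A3 lost it with equal sums per library (adjusted p = 0.0593) and in the leave-outs given above. In MCF10A the count of called members was 2 with a pseudocount of 5 and 2 with no filter, 0 of 17 by limma without an intensity trend (COL16A1 adjusted p = 0.0765, 12 with an unadjusted p under 0.05), 5 in the joint fit, and 0 to 4 when a library was left out. With the replicate block, which takes the letters as pairs, it was 7 in MCF10A, and the block moved no other count by over 1.5 times. In MCF10CA1h the count was 3 with no filter, 3 with a mean of at least 50, 0 in the joint fit and 3 to 5 when a library was left out. COL16A1 was not called there without a trend (adjusted p = 0.0629). Between the MCF10CA1h and MCF10AT1 controls it was 7 with a mean of at least 50, where fewer genes were tested. Leaving out a library gave 9 to 11 in MCF10AT1, 7 to 13, 11 to 18 and 11 to 14 between controls, and 12 to 16, 3 to 6 and 9 to 13 for the differences between effects. Other causes were not tested. In MCF10CA1h same-letter correlations were -0.011, 0.017 and 0.046, so the letters were not taken as pairs there, and the block gave 6 called members in place of 5. Between controls same-letter correlations ran from -0.268 to 0.284.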
